A study of Mus musculus with 20 samples.

Results

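The inner plexiform layer (IPL) of the mouse retina was compared with the ganglion cell layer (GCL), which lies next to it. The members are 8 of the 20 arrays of the series, taken by their labels: 4 IPL arrays and 4 GCL arrays, with light and dark adaptation weighted equally. Each layer has 2 arrays from dark-adapted and 2 from light-adapted animals. All groups came from adult C57BL/6 mice aged 7 to 8 weeks, with no mutation or drug named in the labels. The dark-adapted mice had spent 3 h in a chamber at no more than 0.4 lux, and the light-adapted mice 6 h under room light of 450 lux. Layers were cut from retinal sections by laser capture microdissection, RNA was extracted with Trizol, and biotinylated cRNA from a 2-cycle labelling was hybridised to Affymetrix arrays. The other 12 arrays hold the photoreceptor layer, the inner nuclear layer and the whole retina, and served to estimate the spread. No label says which animals contributed to an array or how many did, so the p-values measure the spread between these arrays, which may be technical.

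The IPL is a band of neuropil in which bipolar cell terminals contact the processes of amacrine and ganglion cells, and Müller glia send their fibres through it. It holds few cell bodies, so its RNA is mainly that of axon terminals, dendrites and glial processes plus whatever neighbouring somata a cut includes. The GCL holds the somata of the retinal ganglion cells, whose axons form the optic nerve, together with displaced amacrine cells and, along its inner face, nerve fibres, astrocytes and vessels. In bulk tissue of this kind, fewer cells of a type and less RNA per cell cannot be told apart.

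Values are array intensities on a linear scale, and differences are log2 of the IPL over the GCL with the standard error of the fit, after values under 8 were set to 8. The 8 arrays were alike in median intensity (38.9 to 40.6), and the correlation between the arrays of a pair, across genes, was 0.851 to 0.887. The light-adapted IPL arrays stood apart. Their median correlations with the arrays of other groups were 0.738 and 0.768, against 0.828 to 0.845 for the other 6 arrays. For the averaged differences of passing genes below, the fit without the light-adapted IPL arrays is given too, by value or by whether a group passed. That fit sets the dark-adapted IPL arrays against the GCL arrays of both adaptations. Layer and adaptation are then partly confounded, so it is not a plain check of the layer difference. Y-linked genes had a median intensity of 306.2 and 192.2 in the light-adapted GCL arrays, against 10.9 to 25.1 in the other 6 arrays. The sex of the animals is not given in the labels, and the part of this signal in the results was not tested beyond the settings named below.

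Of 15057 genes tested, 467 (3.1%) passed an adjusted p of 0.05, of which 273 (1.81%) were higher and 194 (1.29%) lower in the IPL (limma, n = 4 against 4). The lower genes included the larger differences: 83 of them but 52 of the higher genes differed by at least 1 on the log2 scale, and 8 lower but 2 higher genes by at least 2. The median difference was 0.77 for the higher and -0.96 for the lower genes, against 0.017 over all genes tested. The 4 IPL and 4 GCL arrays did not overlap for 157 of the higher and 109 of the lower genes, which is 266 of 467 (57%). Over all genes tested, whether they passed or not, 512 (3.4%) lay wholly higher and 367 (2.44%) wholly lower in the IPL. An unadjusted p under 0.05 was reached by 2917 of the 15057 genes, against which the unadjusted list counts below stand.

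The number of passing genes depended strongly on the fit. With the replicate number as a block, 1047 genes passed (6.95%), the share against which the counts with the block below stand. With array weights 73 passed, and with the spread estimated from the 8 arrays alone 7 passed (Gpatch8, Myl12b, Nrn1, Slc1a1, Sparcl1, Srsy and Thy1). Leaving out both light-adapted IPL arrays left 13 passing genes (0.0863%; Atp1b3, Hacd2, Mir182, Myl12b, Nefm, Nrn1, Paip2, Pcp2, Rgs4, Rlbp1, Slc1a1, Thy1 and Wt1os), and 465 of the 467 differences then kept their direction. The 467 genes were selected with most of the same arrays, so this sign count is a description and not a separate check. The 5 arrays of the series with Y-linked signal include both light-adapted GCL arrays. Of the 13 genes, Thy1, Slc1a1, Nefm and Myl12b also passed without these 5. Atp1b3, Mir182, Nrn1, Pcp2, Rgs4, Rlbp1 and Wt1os did not. Single arrays mattered as well, with 56 genes passing without replicate 2 of the dark-adapted GCL and 93 without replicate 2 of the light-adapted GCL. The replicates left out in turn gave 256 and 162 genes without replicate 1 of the light-adapted and of the dark-adapted IPL. Thy1, Slc1a1 and Myl12b passed in all 23 settings tried, and Nefm and Sparcl1 in 22 of 23.

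Within dark adaptation 4 genes passed (0.0266%), namely Rlbp1 and Wt1os, which were higher in the IPL, and Thy1 and Slc1a1, which were lower (0.0133% in each direction). Within light adaptation 975 genes passed (6.48%), 605 of them higher (4.02%) and 370 lower (2.46%). At an unadjusted p under 0.05 there were 988 genes in dark and 3571 in light. With the replicate block the counts were 9 in dark and 1831 in light, and without replicate 2 of the light-adapted GCL 67 passed in light. The sign was shared by dark and light for 453 of the 467 genes, with a median absolute difference of 0.54 in dark and 1.16 in light. Those genes were selected on the average of both adaptations, so this sign count is a description and not a separate check.

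**Figure D1:**
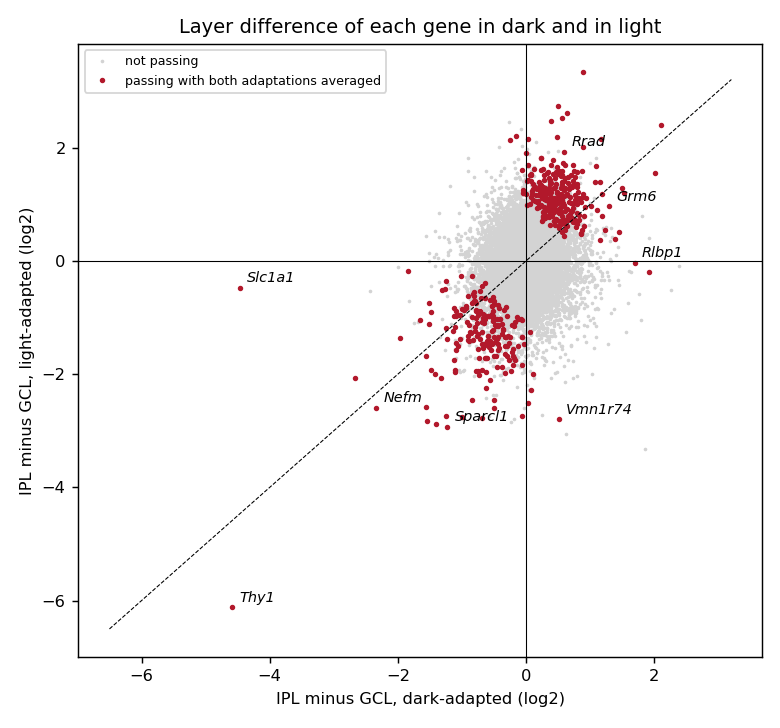
Difference between the inner plexiform and the ganglion cell layer for each of 15057 genes (log2 units), in dark-adapted arrays on the horizontal axis and in light-adapted arrays on the vertical axis. Red points are the 467 genes that passed with both adaptations averaged, grey points the rest, and the dashed line marks equal differences. The median absolute difference of the red points is 0.54 in dark and 1.16 in light, Thy1 is far below 0 on both axes, and Slc1a1 is far below 0 in dark only.

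The transcripts of retinal ganglion cells that passed were all lower in the IPL. Of 23 measured members of the ganglion cell list, 9 passed (39.1%), against 1.29% of all genes. The median member differed by -0.60, and by -0.57 in dark and -0.75 in light. Without the light-adapted IPL arrays 3 members passed, and with the replicate block 11 did. The mean log2 level of the list was 5.92 ± 0.17 in the IPL and 6.90 ± 0.21 in the GCL (SD, n = 4 each), and the highest IPL array (6.13) lay under the lowest GCL array (6.67).

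Thy1, a cell surface glycoprotein used to label ganglion cells, had the largest difference of all genes tested. Its intensity was 21.5 and 24.6 in dark-adapted and 7.1 and 7.2 in light-adapted IPL arrays, against 534.5 and 573.3 in dark-adapted and 497 and 617.9 in light-adapted GCL arrays. Every IPL array was far below every GCL array, and both light-adapted IPL arrays were under the floor. The fitted difference, with those arrays set to the floor, was -5.35 ± 0.15 (adjusted p = 5.18e-13), and without them -4.59 (adjusted p = 7.08e-10). It was also lower in dark alone, by -4.59 ± 0.22 (adjusted p = 2.03e-09).

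The neurofilament medium chain Nefm, a structural protein of large axons, was lower too. In the sets of 4 intensities below, the dark-adapted pair of a layer precedes its light-adapted pair. Nefm had 23.2, 75.1, 32.1 and 43.7 in the IPL, against 144.4, 307, 181.6 and 280.6 in the GCL, a difference of -2.46 ± 0.33 (adjusted p = 0.0018). The light chain Nefl had 86.5, 122.9, 16.9 and 76.2 in the IPL, against 145.3, 295.9, 166.1 and 355.7 in the GCL, a difference of -1.88 ± 0.45 (adjusted p = 0.035). Neither gene overlapped between the layers, and Nefm also passed without the light-adapted IPL arrays (-2.38, adjusted p = 0.042) whereas Nefl did not (-1.12, adjusted p = 0.56). Nrn1, which encodes the membrane-anchored neurite factor neuritin, had 14.2, 15.5, 11.2 and 10.7 in the IPL, against 35.5, 53.1, 79.5 and 75.7 in the GCL. The 4 IPL values of Nrn1 lay close together and all under the GCL values, with a difference of -2.19 ± 0.24 (adjusted p = 0.00027) that passed without the light-adapted IPL arrays too (-1.97, adjusted p = 0.011).

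Slc17a6, the vesicular glutamate transporter VGLUT2 with which ganglion cells load their synaptic vesicles, had 29.1, 75.2, 30.5 and 26.4 in the IPL, against 84.2, 224.6, 98.7 and 290.9 in the GCL. The layers did not overlap, although the GCL values ran from 84.2 to 290.9, and the difference was -2.07 ± 0.36 (adjusted p = 0.0086). Rbpms, an RNA-binding protein found in nearly all ganglion cells, had 76.9, 97.3, 85.5 and 82.5 in the IPL, against 137.5, 239.6, 193.9 and 291.8 in the GCL, a difference of -1.29 ± 0.19 (adjusted p = 0.0046). Sncg, the gamma-synuclein of ganglion cells, differed by -1.06 ± 0.23 (adjusted p = 0.020), and Stmn2, a microtubule regulator of growing axons, by -1.13 ± 0.26 (adjusted p = 0.028). Neither overlapped between layers, and neither passed without the light-adapted IPL arrays (-0.96 and -1.34, adjusted p = 0.20 and 0.21). Slc17a6 (-1.71, adjusted p = 0.27) and Rbpms (-1.26, adjusted p = 0.093) did not pass without them either. The nicotinic receptor subunit Chrna6 was lower by -1.71 ± 0.39 (adjusted p = 0.030), but replicate 1 of the light-adapted GCL (45.2) was level with replicate 2 of the dark-adapted IPL (45.5), so its layers overlapped, and it did not pass without the light-adapted IPL arrays (-1.43, adjusted p = 0.45). The transcription factor Pou4f1, a defining marker, was low in both layers (14.7, 35.9, 23.4 and 21.8 in the IPL, 27, 37.4, 32.6 and 48 in the GCL), and its difference of -0.64 ± 0.29 did not pass (adjusted p = 0.23).

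**Figure D2:**
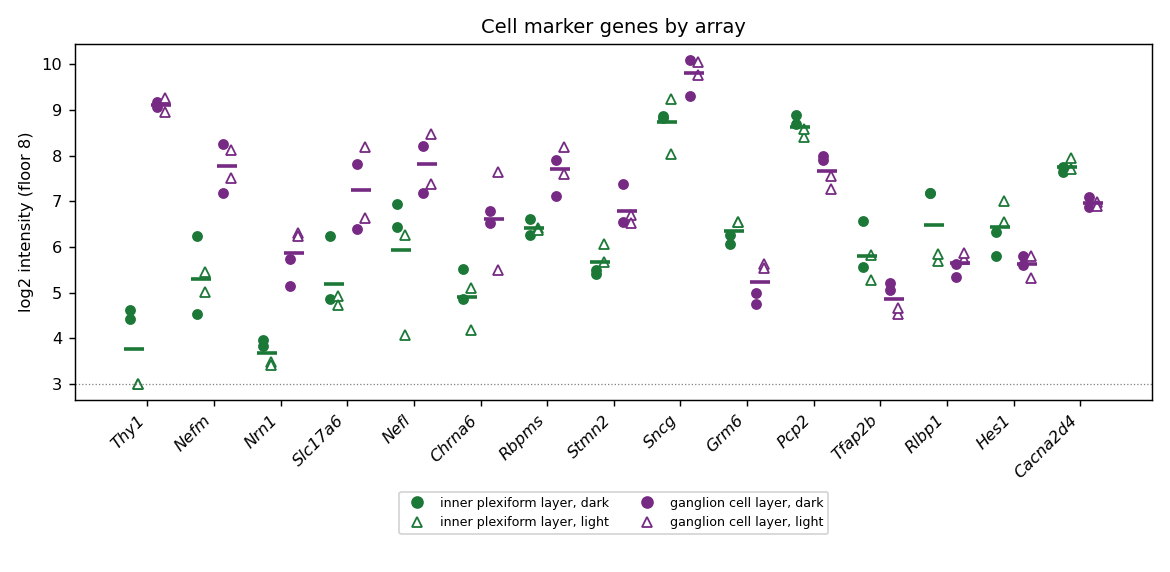
Log2 intensity of 15 cell marker and synaptic genes, drawn because they passed, on each IPL (green, left of each pair) and GCL (purple, right) array. Filled circles are dark-adapted and open triangles light-adapted arrays, bars are the means of 4 arrays, and the dotted line is the floor of 8. The 9 genes from Thy1 to Sncg are lower in the IPL and the 6 from Grm6 to Cacna2d4 higher. List members that did not pass are not drawn, and some went the other way. Positive differences were found in 3 of 23 ganglion cell genes. Negative ones were found in 4 of 19 bipolar, 3 of 17 amacrine, 4 of 20 Müller glia and 5 of 16 ribbon synapse genes. The IPL values of Rlbp1 are high in the dark-adapted arrays only.

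The wider machinery of axons and excitability pointed the same way in its passing members. Of 29 measured axonal cytoskeleton and motor genes, 5 passed (17.2%, against 1.29% of all genes), all lower in the IPL, with a list median of -0.53. They were Nefm, Nefl and Stmn2, which the ganglion cell list also holds, the axonal kinesin Kif5a (-1.0 ± 0.26, adjusted p = 0.047) and the intermediate filament Ina (-0.79 ± 0.21, adjusted p = 0.049). With the replicate block 11 members passed. Without the light-adapted IPL arrays 1 did, and Kif5a (-1.12, adjusted p = 0.25) and Ina (-0.53, adjusted p = 0.64) did not. The neurofilament heavy chain Nefh had 248.7, 230.9, 240.2 and 391.9 in the IPL, against 375.9, 383.7, 392 and 548.6 in the GCL. Replicate 2 of the light-adapted IPL reached the GCL range, and the difference of -0.63 ± 0.17 missed the threshold (adjusted p = 0.056, and 0.030 with the block).

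Among 23 measured voltage-gated sodium and potassium channel genes, 5 passed (21.7%, against 1.29% of all genes), all lower, with a list median of -0.26. The sodium channel beta subunit Scn2b differed by -1.08 ± 0.17 (adjusted p = 0.0054). The pore subunits Scn2a and Scn8a differed by -0.93 ± 0.21 (adjusted p = 0.026) and -1.10 ± 0.25 (adjusted p = 0.028). All 14 probe sets of Scn2a had the same direction, but Scn2a did not pass by the mean of its probe sets. Kcnip4, which modulates A-type potassium channels, and Kcnd2, one of their pores, were lower by -1.69 ± 0.32 (adjusted p = 0.012) and -1.20 ± 0.27 (adjusted p = 0.028). Kcnd2 was the one of these 5 whose layers did not overlap, and none of the 5 passed without the light-adapted IPL arrays, where the differences ran from -0.48 for Scn8a to -1.21 for Kcnip4. In contrast the axonal potassium channel Kcna1 was wholly higher in the IPL (68.8, 70.9, 92.4 and 103.4, against 50.2, 61.1, 61.5 and 56.3 in the GCL), with a difference of 0.53 ± 0.15 that did not pass (adjusted p = 0.068, with the block 0.031). The sodium pump subunit Atp1b1 had 125.3, 260.5, 60.7 and 103 in the IPL, against 308.7, 600.2, 355.5 and 781.9 in the GCL, a difference of -1.99 ± 0.33 (adjusted p = 0.0063) that did not pass without the light-adapted IPL arrays (-1.40, adjusted p = 0.34). It was 1 passing member of 6 measured pump genes (16.7%, against 1.29% of all genes lower), and with the block 2 passed.

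Calcium and G-protein signalling genes contributed few members. The shares passing were 10% of 20 calcium-binding, 9.09% of 11 G-protein regulator and 8.33% of 12 neuropeptide genes, against 1.29% of all genes lower. Calb2, the calcium buffer calretinin of amacrine and ganglion cells, had 87.6, 229.1, 50.7 and 92 in the IPL, against 235.5, 603.9, 394.4 and 637.9 in the GCL. The highest IPL value was just under the lowest GCL value, and the difference was -2.14 ± 0.38 (adjusted p = 0.0092). The S100 protein S100a10 was the other passing gene of 20 measured calcium-binding proteins, at -0.89 ± 0.19 (adjusted p = 0.022). Rgs4, which speeds the shut-off of G proteins, was the 1 passing gene of 11 regulators of G-protein signalling, with 32.1, 35.9, 45.4 and 74.1 in the IPL, against 74.4, 127.3, 95.7 and 166.8 in the GCL. The layers of Rgs4 nearly met, at 74.1 and 74.4, and the difference of -1.32 ± 0.21 (adjusted p = 0.0060) passed without the light-adapted IPL arrays as well (-1.71, adjusted p = 0.011). Tac2, the precursor of neurokinin B, was lower by -1.22 ± 0.21 (adjusted p = 0.0092) and was the 1 passing gene of 12 measured neuropeptides. Calb2 (-1.62, adjusted p = 0.33), S100a10 (-0.98, adjusted p = 0.21) and Tac2 (-1.13, adjusted p = 0.21) did not pass without the light-adapted IPL arrays.

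On the lists for the other cells with processes in the IPL few markers passed, and those that did were higher there. Calb2, of amacrine and ganglion cells, is not on the amacrine list and was lower, as given above. Of 19 bipolar cell genes 2 passed (10.5%), both higher, against 1.81% of all genes, and 15 of the 19 had positive differences, with a median of 0.37. Grm6, the metabotropic glutamate receptor of ON bipolar cells, had 67.1, 76.5, 93.4 and 93.5 in the IPL, against 31.7, 26.9, 49.4 and 46.4 in the GCL. The layers were separate, with a difference of 1.13 ± 0.17 (adjusted p = 0.0054), though not passing without the light-adapted IPL arrays (0.94, adjusted p = 0.20). Pcp2, a modulator of G protein signalling abundant in rod bipolar and ON cone bipolar cells, had 412.6, 472.5, 336.8 and 381 in the IPL, against 238.2, 253, 154 and 186.5 in the GCL. No array of one layer entered the range of the other, and the difference of 0.96 ± 0.15 (adjusted p = 0.0056) passed without the light-adapted IPL arrays too (1.11, adjusted p = 0.036). The protein kinase Prkca of rod bipolar cells (0.61 ± 0.25, adjusted p = 0.19) and the ON bipolar channel Trpm1 (0.57 ± 0.18, adjusted p = 0.089) did not pass. The mean level of the bipolar list, in log2 units, was 6.31 in the IPL and 5.95 in the GCL, and 6.71 in the inner nuclear layer where the bipolar somata lie.

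Of 17 amacrine genes 1 passed (5.88%, against 1.81% of all genes higher) and 14 had positive differences, with a median of 0.28. The passing gene was Tfap2b, a transcription factor of amacrine cells, with 46.9, 95.2, 56.5 and 38.6 in the IPL, against 37.2, 33.4, 23 and 25.2 in the GCL. Its layers were separate by a narrow margin, at 38.6 and 37.2, and the difference of 0.94 ± 0.25 (adjusted p = 0.046) passed in 8 of 22 settings, not among them the fit without the light-adapted IPL arrays (1.20, adjusted p = 0.23). With the block 5 amacrine genes passed, all higher, among them Tfap2a (adjusted p = 0.0497) and the glycine transporter Slc6a9 (adjusted p = 0.031). Gad1, which makes GABA, differed by 0.41 ± 0.17 (adjusted p = 0.20). None of 6 genes of the starburst cells, amacrine cells that lie in both the inner nuclear layer and the GCL, passed in limma. At an unadjusted p under 0.05 there was 1, against 2917 of all 15057 genes. The acetylcholine enzyme Chat of starburst cells was at 26.3, 38.7, 33.1 and 65.3 in the IPL, against 35, 38.7, 38.1 and 38.5 in the GCL. Its difference was 0.04 ± 0.21.

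Of 20 Müller glia genes 2 passed (10%, against 1.81% of all genes), both higher. Rlbp1, the retinaldehyde carrier CRALBP, had 144.2, 144.1, 51.4 and 57.8 in the IPL, against 49.6, 40.2, 53.5 and 58 in the GCL. The dark-adapted IPL arrays were above the rest, while the light-adapted ones lay in the GCL range, and the averaged difference was 0.83 ± 0.16 (adjusted p = 0.016). Hes1, a transcriptional repressor of the Notch pathway, had 56.1, 80, 129 and 93.9 in the IPL, against 48.3, 55.4, 39.8 and 55.9 in the GCL, a difference of 0.80 ± 0.20 (adjusted p = 0.036). Hes1 was highest in the light-adapted IPL and did not pass without those arrays (0.44, adjusted p = 0.68), where Rlbp1 did (1.53, adjusted p = 0.0065). Other Müller markers did not pass, including glutamine synthetase Glul (0.47 ± 0.30, adjusted p = 0.42), the glutamate transporter Slc1a3 (0.22 ± 0.20, adjusted p = 0.60) and the water channel Aqp4 (0.21 ± 0.19, adjusted p = 0.60). Of the 20 genes, 16 had positive and 4 negative differences, with a median of 0.21. The list median was 0.36 in dark but -0.010 in light. Kcnj10 had a negative averaged difference (-0.44, adjusted p = 0.20) and passed as lower in light (-1.11, adjusted p = 0.020).

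Synaptic genes that passed included higher and lower ones. Of 16 ribbon synapse genes 1 passed (6.25%, against 1.81% of all genes higher), the calcium channel subunit Cacna2d4 of ribbon terminals. It had 200.6, 213.7, 208.5 and 245.4 in the IPL, against 135.7, 117.3, 127 and 118.6 in the GCL, a difference of 0.80 ± 0.16 (adjusted p = 0.016) that did not pass without the light-adapted IPL arrays (0.73, adjusted p = 0.27). The 4 arrays of each layer lay close together, at 7.76 ± 0.13 in the IPL and 6.96 ± 0.098 in the GCL (log2, SD, n = 4 each). With the block 4 ribbon genes were higher and 2 lower. The ribbon protein gene Ctbp2 (0.46 ± 0.14, adjusted p = 0.075, with the block 0.020) and the active zone scaffold Bsn (0.53 ± 0.15, adjusted p = 0.056, with the block 0.034) had positive differences and layers that did not overlap. Pclo, a partner scaffold of Bsn, had a negative difference (-0.85 ± 0.26, adjusted p = 0.085, with the block 0.013).

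The general vesicle release genes had negative differences in 17 of 21 measured members, with a median of -0.52. Of these 3 passed (14.3%, against 1.29% of all genes), all lower: the vesicle GTPase Rab3a (-1.05 ± 0.19, adjusted p = 0.0092), the vesicle SNARE Vamp1 (-0.79 ± 0.16, adjusted p = 0.016) and the synaptotagmin Syt11 (-1.55 ± 0.34, adjusted p = 0.022). With the block 9 passed, all lower, and without the light-adapted IPL arrays 0 did, with Rab3a at -0.59 (adjusted p = 0.52), Vamp1 at -0.67 (adjusted p = 0.32) and Syt11 at -0.60 (adjusted p = 0.71). Snap25, the plasma membrane SNARE of neurons, had 289.9, 572.5, 171.3 and 301.2 in the IPL, against 477.2, 676.9, 497.7 and 811.4 in the GCL. One dark-adapted IPL array reached the GCL range, and the difference was -0.98 ± 0.30 (adjusted p = 0.076, with the block 0.0047).

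On the receiving side none of 27 glutamate receptor and postsynaptic scaffold genes passed (median 0.0038), nor did any of 32 genes of lamination and synaptic adhesion (median -0.010). At an unadjusted p under 0.05 there were 7 and 5, against 2917 of all 15057 genes. With the block 1 and 2 of them passed, all lower. Gria2, an AMPA receptor subunit, had variable values, at 22.2, 87.2, 6.9 and 15.9 in the IPL, against 33.8, 79, 38.9 and 168 in the GCL. Its difference of -1.54 ± 0.56 did not pass (adjusted p = 0.14, with the block 0.0057), and its layers overlapped. Of 12 GABA and glycine receptor genes 1 passed as lower (8.33%, against 1.29% of all genes), the GABA-B subunit Gabbr2 (-0.74 ± 0.15, adjusted p = 0.018). Of 10 nicotinic and dopamine receptor genes 20% passed, against 3.1% of all genes. Chrna6 was lower, and the D4 dopamine receptor Drd4 was higher, with 162.7, 136.9, 289.2 and 187.6 in the IPL, against 102.5, 118.4, 131 and 108.3 in the GCL (0.70 ± 0.15, adjusted p = 0.023). Drd4 was highest in the light-adapted IPL. It passed in 13 of 23 settings, and without those arrays neither Drd4 (0.38, adjusted p = 0.56) nor Gabbr2 (-0.58, adjusted p = 0.36) passed.

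Because the IPL holds dendrites, transcripts known to travel into dendrites were examined as a list. Of 16 measured, 1 was higher and 1 lower (12.5%, against 3.1% of all genes), and the median was -0.09. The higher one was Dlgap3, a postsynaptic scaffold whose mRNA is dendritic in hippocampal neurons, with 118.8, 98.6, 139 and 216.1 in the IPL, against 85.9, 89.2, 80.7 and 68.5 in the GCL (0.76 ± 0.19, adjusted p = 0.041). The lower one was Sparcl1, the matrix protein hevin, with 175.2, 259.8, 59.9 and 70.9 in the IPL, against 392, 637.7, 419 and 588.7 in the GCL. All IPL values of Sparcl1 were under the GCL values and the light-adapted ones were lowest, with a difference of -2.08 ± 0.26 (adjusted p = 0.00090). Neurogranin Nrgn, another dendritic mRNA, did not pass (0.59 ± 0.19, adjusted p = 0.093). Without the light-adapted IPL arrays neither Dlgap3 (0.42, adjusted p = 0.67) nor Sparcl1 (-1.22, adjusted p = 0.27) passed.

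**Figure D3:**
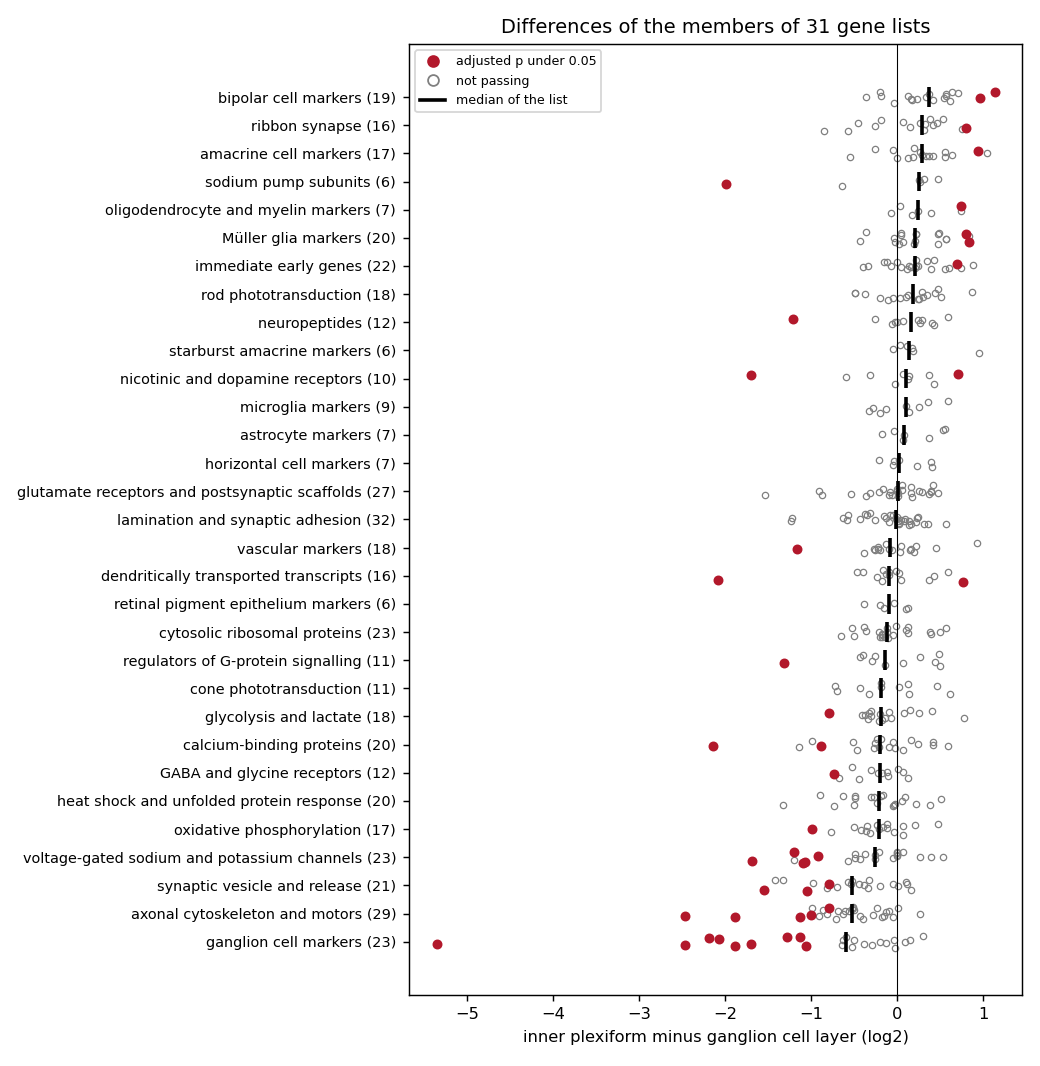
Differences between the inner plexiform and the ganglion cell layer (log2) of each measured member of 31 gene lists, with the number measured in brackets, ordered by the list median (black bar). Red points passed an adjusted p of 0.05. The ganglion cell list, at the bottom, has a median of -0.60 with 9 passing members, and the bipolar list, at the top, a median of 0.37 with 2.

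Markers of other cells that a cut could include were counted in the same way. No member passed among 7 horizontal cell, 7 astrocyte, 9 microglia, 18 rod, 11 cone and 6 pigment epithelium genes in limma. At an unadjusted p under 0.05 there were 1, 2, 1, 2, 4 and 0, against 2917 of all 15057 genes. With the block 1 rod gene was higher and 1 cone gene each way. The mean log2 level of the rod list ranged over 6.53 to 7.19 in the IPL arrays and 6.16 to 7.72 in the GCL arrays. Rod transcripts were thus present and uneven in both layers. Rod transducin Gnat1 was at 405.8, 248.2, 321.5 and 403.5 in the IPL, against 321.9, 137.5, 153.3 and 843.3 in the GCL, where replicate 2 of the light-adapted pair held by far the most. The part of rod transcripts in the results was not tested. Of 18 vascular genes 1 passed as lower (5.56%, against 1.29% of all genes), the pericyte gene Rgs5 (-1.17 ± 0.25, adjusted p = 0.022). The endothelial genes Pecam1 (-0.27 ± 0.18) and Cldn5 (0.04 ± 0.16) and the pericyte receptor Pdgfrb (-0.06 ± 0.15) did not pass. Of 7 myelin genes 1 passed as higher (14.3%, against 1.81% of all genes). It was Mog, with 60.3, 64.3, 109.3 and 86.2 in the IPL, against 54.7, 42.7, 49.9 and 40.6 in the GCL (0.74 ± 0.18, adjusted p = 0.035), and Mbp did not pass (0.24 ± 0.20). Neither Rgs5 (-0.93, adjusted p = 0.44) nor Mog (0.42, adjusted p = 0.67) passed without the light-adapted IPL arrays. With the block 2 myelin genes and 1 vascular gene were higher.

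Of 100 measured members of 5 metabolic and stress lists 3 passed (3%), a share near the 3.1% of all genes. The neuronal enolase Eno2 was lower (-0.80 ± 0.19, adjusted p = 0.034) among 18 glycolysis genes, Ndufa4 of the respiratory chain was lower (-0.99 ± 0.21, adjusted p = 0.022) among 17 oxidative phosphorylation genes, and the immediate early gene family member Jund was higher (0.69 ± 0.16, adjusted p = 0.033) among 22. None of 23 cytosolic ribosomal protein genes or 20 heat shock and unfolded protein response genes passed. At an unadjusted p under 0.05 there were 5 and 4, against 2917 of all 15057 genes. Eno2 (-0.74, adjusted p = 0.38), Ndufa4 (-0.40, adjusted p = 0.77) and Jund (0.30, adjusted p = 0.77) did not pass without the light-adapted IPL arrays. With the block 3 immediate early genes were higher, 4 heat shock genes lower, and 2 ribosomal genes higher and 1 lower.

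Genes outside these lists were lower in the IPL as well. Rtn1, a reticulon of the neuronal endoplasmic reticulum, had 89.2, 128.2, 29.8 and 62.3 in the IPL, against 165.9, 222.4, 167.1 and 333.3 in the GCL, a difference of -1.65 ± 0.31 (adjusted p = 0.012). Myl12b, a regulatory light chain of non-muscle myosin, had 143.4, 179.1, 119.4 and 171.5 in the IPL, against 348, 351.4, 454.1 and 514.2 in the GCL. It was 2.71-fold lower in the IPL with little spread in either layer, at -1.44 ± 0.18 (adjusted p = 0.00090), and the difference without the light-adapted IPL arrays was nearly as large (-1.36, adjusted p = 0.017). Eloc, the elongin C subunit of ubiquitin ligases, differed by -1.62 ± 0.32 (adjusted p = 0.015) and Prune2 by -1.34 ± 0.25 (adjusted p = 0.012). Rtn1 (-0.99, adjusted p = 0.48), Eloc (-1.69, adjusted p = 0.17) and Prune2 (-1.10, adjusted p = 0.32) did not pass without the light-adapted IPL arrays.

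Among passing genes whose layers did not overlap, with small RNA, predicted, clone and chemosensory receptor genes left out, the 15 largest higher differences ran from 1.04 to 1.39 and the 15 largest lower ones from -1.29 to -5.35. Rrad, a small GTPase that inhibits calcium channels, had 62.3, 53.8, 82.1 and 109.8 in the IPL, against 34.6, 42.4, 29.6 and 21.1 in the GCL, a difference of 1.26 ± 0.17 (adjusted p = 0.0021). Snrpb, a core protein of the spliceosome, had 153.3, 124.5, 341.4 and 258.4 in the IPL, against 85.6, 97.3, 106.4 and 79.6 in the GCL, a difference of 1.14 ± 0.15 (adjusted p = 0.0012). In both genes the light-adapted IPL arrays were highest, and neither passed without them (adjusted p = 0.20 and 0.32). H2ax, the histone variant that marks DNA breaks, differed by 1.27 ± 0.22 (adjusted p = 0.0076), the ciliary gene Cfap126 by 1.39 ± 0.26 (adjusted p = 0.012), and the Ran-binding transport factor Ranbp1 by 1.04 ± 0.17 (adjusted p = 0.0062). The other named higher genes were Mylpf (1.23), Frmd6 (1.21), Gpatch8 (1.17), Zfp353-ps (1.12), H2-Eb2 (1.08), Foxd3 (1.07), Nedd1 (1.06), Ssr4 (1.06) and Bpifa1 (1.04). None of these 14 genes passed without the light-adapted IPL arrays. Gpatch8 was higher in 2 of its 5 probe sets, and its difference by the mean of the probe sets was 0.054 (adjusted p = 0.93).

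The layer difference itself was compared between dark and light adaptation, and 2 genes passed (0.0133%), with 1804 at an unadjusted p under 0.05. With the replicate block 88 passed. Slc1a1, the neuronal glutamate transporter EAAC1, had 19.9 and 37 in dark-adapted IPL arrays, against 598.4 and 602.1 in dark-adapted GCL arrays. In light it had 289.9 and 301.2 in the IPL, against 401.1 and 422.1 in the GCL. The dark-adapted IPL was thus far below every other group, while the light-adapted layers were close. The difference was -4.47 ± 0.24 in dark (adjusted p = 5.84e-09) and -0.48 in light (adjusted p = 0.23), and the dark minus light contrast was -3.99 ± 0.33 (adjusted p = 1.64e-05). Both the dark difference and the dark minus light contrast passed in 21 of 21 settings, with adjusted p-values of at most 6.74e-05 and 0.014.

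In every other tissue Slc1a1 lay above its level in the dark-adapted IPL. It was at 389.5 and 370.3 in the dark-adapted and 462 and 319.8 in the light-adapted inner nuclear layer. The photoreceptor layer held 408.2 and 411.2 in dark and 134.5 and 138.1 in light, and the whole retina 589.9 and 592.4 in dark and 140.1 and 152.4 in light. A single probe set measured the gene.

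Rlbp1, described above, differed by 1.69 ± 0.23 in dark (adjusted p = 0.0061) and -0.03 in light (adjusted p = 0.95). The dark minus light contrast of 1.72 ± 0.33 did not pass (adjusted p = 0.079) except with the replicate block (adjusted p = 0.021), 1 of 21 settings. The dark call was lost without replicate 1 of the dark-adapted IPL, without replicate 2 of the dark-adapted GCL, and with the 8 arrays alone. Wt1os, a noncoding RNA gene, had 308 and 187.9 in dark-adapted IPL arrays, against 58.3 and 69.3 in dark-adapted GCL arrays. In light it had 74.9 and 78.5 in the IPL, against 65.1 and 117.8 in the GCL. The dark difference was 1.92 ± 0.30 (adjusted p = 0.030) and passed in 12 of 21 settings. Its dark minus light contrast of 2.11 did not pass (adjusted p = 0.081, with the block 0.030), nor did that of Thy1 (1.52, adjusted p = 0.081, with the block 0.036).

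**Figure D4:**
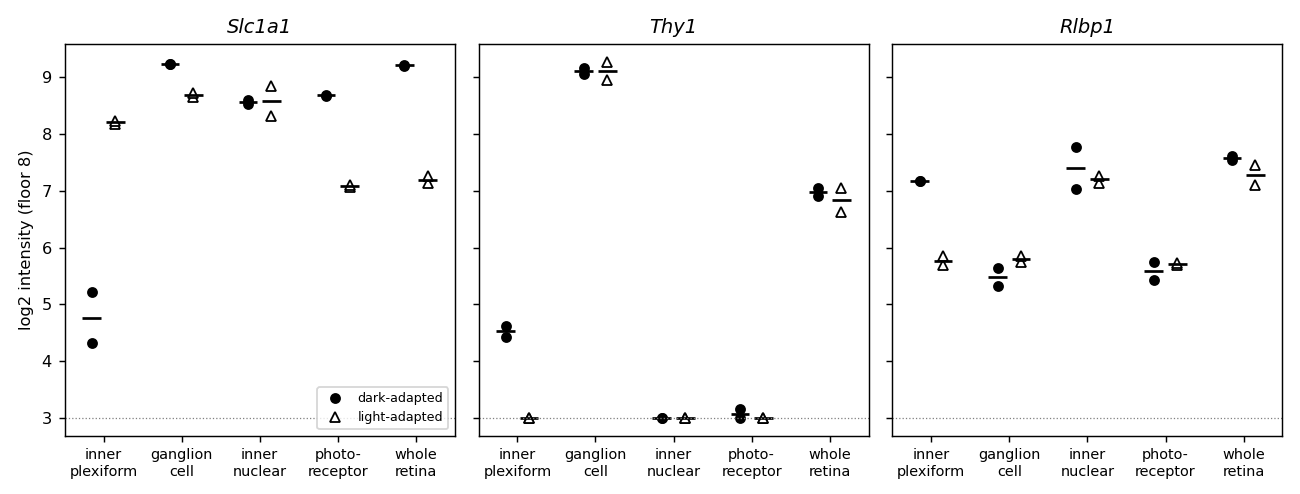
Log2 intensity of Slc1a1, Thy1 and Rlbp1 on all 20 arrays by tissue. Filled circles are dark-adapted and open triangles light-adapted arrays, bars are means of 2 arrays, and the dotted line is the floor of 8. Slc1a1 is lowest in the dark-adapted inner plexiform layer (19.9 and 37 as intensities), Thy1 is high in whole retina and ganglion cell layer arrays, and Rlbp1 is higher in the dark-adapted than in the light-adapted inner plexiform layer.

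Nrn1 (-2.83, adjusted p = 0.00078), Sparcl1 (-2.93, adjusted p = 0.00078) and Calb2 (-2.88, adjusted p = 0.0070) were among the most reduced genes in light, and their dark differences of -1.55, -1.23 and -1.41 did not pass (adjusted p = 0.25, 0.47 and 0.63). Their dark minus light contrasts did not pass either (adjusted p = 0.29, 0.23 and 0.46), although with the block that of Sparcl1 did (adjusted p = 0.049). Among the genes most increased in light, Gsdmc2, a gasdermin, had 32.1, 55.3, 121.8 and 122.3 in the IPL, against 27.3, 27, 35.8 and 11.1 in the GCL, with a light difference of 2.61 (adjusted p = 0.0056). Trim12c (2.53 in light, adjusted p = 0.014), the histone gene H4c3 (2.46, adjusted p = 0.014), Lix1 (2.33, adjusted p = 0.0092) and the motor neuron transcription factor Mnx1 (2.21, adjusted p = 0.0053) had dark differences of 0.56, -0.26, -0.07 and -0.16. All of these light values set the 2 light-adapted IPL arrays that stood apart against the 2 light-adapted GCL arrays, and depend on both pairs. The 975 genes passing in light became 67 without replicate 2 of the light-adapted GCL. Without replicate 1 or 2 of the light-adapted IPL they became 329 and 926.

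MicroRNA genes held a larger share of passing genes than the rest of the table in this fit. They fall outside the rule by which genes are named here and were chosen after their values were seen. Of 145 measured, 21 passed (14.5%), with 15 higher and 6 lower in the IPL, against 2.99% of the other 14912 genes. In light 30 passed (20.7%, against 6.34% of the other genes), and in dark 0 did. At an unadjusted p under 0.05 there were 19 in dark, against 969 of the other 14912 genes. With the block 31 passed (21.4%, against 6.95% of all genes), and with array weights 6 (4.14%, against 0.485%). With the 8 arrays alone 0 passed, against 0.0465% of all genes. Without the light-adapted IPL arrays 1 passed (0.69%, against 0.0863% of all genes), which was Mir182. The median over the 145 was -0.014, against 0.017 over all genes. In 20 of the 21 the difference was larger in size in light than in dark.

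A probe set on these arrays does not separate the arms of a microRNA or the mature form from its precursor. The RefSeq table used here held mature sequences for 17 of the 21 genes. The sequences below, 5′ to 3′ from RefSeq on GRCm38.p6, belong to the microRNA genes described next, and capitals mark the seed, bases 2 to 8, which pairs with targets.
miR-331-3p: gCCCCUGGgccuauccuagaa
miR-34b-5p: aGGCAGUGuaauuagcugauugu
miR-24-3p: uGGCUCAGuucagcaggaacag
miR-27a-3p: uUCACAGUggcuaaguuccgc
miR-191-5p: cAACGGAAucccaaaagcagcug
miR-425-5p: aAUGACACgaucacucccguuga
miR-182-5p: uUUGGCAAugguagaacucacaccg
miR-680: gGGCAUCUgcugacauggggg
Among all mature sequences of the 17 genes, the one seed that occurred more than once was GGCAUCU, in the copies of miR-680 made from Mir680-1 and Mir680-3.

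Of the 21 microRNA genes, 8 did not overlap between layers: Mir191, Mir24-2, Mir328, Mir331 and Mir92b were higher, and Mir27a, Mir34b and Mir680-1 lower. Among all 467 passing genes the layers of 57% did not overlap. Mir331 had 54.1, 32.8, 153.9 and 116.7 in the IPL, against 30.7, 29.2, 27.3 and 15 in the GCL, a difference of 1.61 ± 0.26 (adjusted p = 0.0058). Mir34b had 40.6, 31.8, 21.8 and 25.5 in the IPL, against 74.5, 58.8, 57.7 and 54.8 in the GCL, a difference of -1.07 ± 0.16 (adjusted p = 0.0044). In both the light-adapted IPL arrays lay farthest from the GCL, and without those arrays the differences were 0.78 (adjusted p = 0.56) and -0.76 (adjusted p = 0.23).

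Mir182, a sensory-organ microRNA abundant in photoreceptors, had 45.5, 50.4, 38.7 and 12.8 in the IPL, against 17.6, 16.3, 7.2 and 10.5 in the GCL. Replicate 2 of the light-adapted IPL was low, so the layers overlapped, and 1 GCL array was under the floor. The difference was 1.39 ± 0.30 (adjusted p = 0.022), and without the light-adapted IPL arrays it was 1.94 (adjusted p = 0.011).

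Both miR-680 genes were lower, Mir680-1 by -0.94 ± 0.14 (adjusted p = 0.0032) and Mir680-3 by -0.68 ± 0.15 (adjusted p = 0.021). Their mature sequences are identical, and how much signal their probe sets share was not tested. Without the light-adapted IPL arrays the differences were -0.25 (adjusted p = 0.70) and -0.17 (adjusted p = 0.83). Neighbouring microRNA genes were also compared. Mir191 and Mir425 lie 384 bases apart on the plus strand (chr9:108568319-108568861), and both were higher, by 0.87 ± 0.19 (adjusted p = 0.024) and 0.71 ± 0.16 (adjusted p = 0.031). Their differences without the light-adapted IPL arrays were 0.62 (adjusted p = 0.52) and 0.14 (adjusted p = 0.91). Mir24-2 and Mir27a lie 56 bases apart on the plus strand (chr8:84208672-84208921), and they went opposite ways. Mir24-2 had 64.9, 59, 104.6 and 134.3 in the IPL, against 54.6, 48.5, 51.8 and 44.7 in the GCL (0.78 ± 0.16, adjusted p = 0.018), and Mir27a had 61.5, 61.7, 46.5 and 36.4 in the IPL, against 83.4, 74.8, 108.5 and 82.1 in the GCL (-0.78 ± 0.16, adjusted p = 0.019). In both the light-adapted IPL arrays lay farthest from the GCL, and without them the differences were 0.31 (adjusted p = 0.73) and -0.49 (adjusted p = 0.53).

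**Figure D5:**
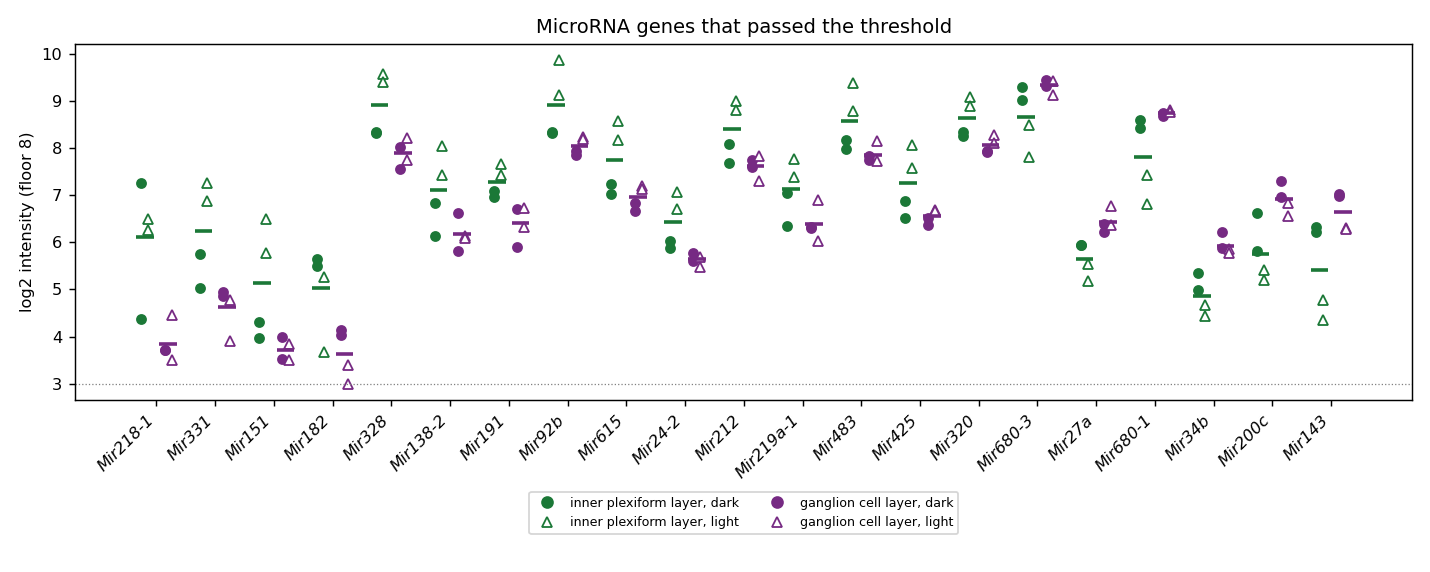
Log2 intensity of the 21 microRNA genes that passed, on each IPL (green, left of each pair) and GCL (purple, right) array, ordered by the difference. Filled circles are dark-adapted and open triangles light-adapted arrays, bars are means of 4 arrays, and the dotted line is the floor of 8. In 15 genes the IPL mean is higher and in 6 lower, and in 20 of the 21 the layer difference is larger in size in light than in dark.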

How the data were processed

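RNA of 20 arrays was measured in 10 groups of 2. The deposited file holds linear intensities for each probe set on each array; that they are linear was read from the values (highest per array 3035.8 to 4713.1). The authors processed the arrays with GCRMA, per the submitters' processing notes; its version is not given in the sources used here, and the array number limits the precision. Values under 8 were set to 8 before log2 was taken.

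Of 35557 probe sets, 21789 have exactly 1 gene symbol in the platform annotation, updated through RefSeq gene IDs, 1621 have several and 12147 are not listed. Probe sets over log2 5 in at least 2 of 20 arrays were kept, and each gene was taken as its probe set with the highest mean. One limma fit (3.58.1, R 4.3.3) held a mean per group, with 10 residual degrees of freedom, an intensity trend, two-sided moderated tests and Benjamini-Hochberg adjustment over 15057 genes at 0.05. The fitting steps were tested on simulated data. The members and the 31 gene lists were chosen with earlier results of these data known.

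Genes named are the 15 largest differences per direction among passing genes whose layers do not overlap, up to 6 members per list by smallest p, defining cell markers, the 5 largest per direction within each adaptation and the 5 smallest p per direction of the dark minus light contrast; predicted, clone, small RNA and chemosensory receptor genes were left out. Genes listed where 13 or fewer passed were named after their values were seen.

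Deviations of same-numbered arrays from their group means correlated at 0.112 to 0.337 in the 6 pairs of the 4 groups, each over 0.1, so same-numbered arrays vary together; this comes from the data, since the labels do not say what a number marks. The reported fit has no block, and values with the replicate number as a block stand beside the results they change. Alternatives were quantile normalisation, median centring, other filters, floors and offsets, the mean of probe sets, no trend, array weights, a minimum difference of 1, the 8 arrays alone, the block, a Y-linked covariate and leaving out each array. Fits without the light-adapted IPL arrays and without the 5 arrays with Y-linked signal were chosen after seeing the data. The first sets the dark-adapted IPL arrays against all GCL arrays. The second leaves out both light-adapted GCL arrays and so sets all IPL arrays against the dark-adapted GCL arrays. Neither weights light and dark equally in both layers.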

Additional observations from a re-analysis of the deposited data

Results flagged for a closer look

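For 2 genes the layer difference itself differed between dark and light adaptation (limma interaction contrast, adjusted p under 0.05, 2 arrays a group). Slc1a1 had a dark minus light contrast of -3.99 ± 0.33 (adjusted p = 1.64e-05), from the low dark-adapted IPL arrays described above.

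Vmn1r74, a vomeronasal receptor gene outside the naming rule and chosen after its values were seen, had 18.5 and 17.7 in dark-adapted IPL arrays, against 14.5 and 11.1 in dark-adapted GCL arrays. In light it had 8 and 10.2 in the IPL, against 74 and 53.4 in the GCL. The contrast was 3.31 ± 0.48 (adjusted p = 0.019) and passed in 14 of 20 settings. The high values stand on the light-adapted GCL arrays, the 2 arrays of the 8 with Y-linked signal. The contrast passed with the Y-linked signal as a covariate, and the part of that signal in this result was not tested further.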

How the results depend on the processing

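The counts below are for the averaged, light, dark and dark minus light comparisons (467, 975, 4 and 2 genes). With the replicate block they were 1047, 1831, 9 and 88, and with the 8 arrays alone 7, 32, 2 and 1. Array weights gave 73, 179 and 1 for the averaged, light and dark minus light comparisons, and a minimum difference of 1 gave 135 averaged and 642 in light. A filter at log2 7 gave 634 in light and 1 for dark minus light, where no filter gave 21, no intensity trend 10, a floor of 16 and the Y-linked covariate 5 each, and an offset of 16 gave 6. Leaving out each array in turn gave 56 to 613, 67 to 1098, 3 to 8 and 2 to 48. Without the light-adapted IPL arrays 13 averaged genes passed, and without the 5 arrays with Y-linked signal 21. Of the 467 differences, 465 kept their sign in those last 2 fits, 466 with the mean of probe sets, and all that were measured in the other settings. The genes were selected on the same arrays, so these sign counts are a description and not a separate check. The averaged difference of Vmn1r74 turned to 0.011 without the Y-signal arrays (adjusted p = 0.99). The block made passing calls of members named above with their block p and ended none of the 467 calls. Causes were not tested. With 2 arrays a group, small differences were not detectable, and genes near the floor have only bounded differences.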

Other observations

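Of 31 measured histone genes 4 passed (12.9%), all higher in the IPL, against 1.81% of all genes higher. In limma 5 passed in light (16.1%, against 6.48% of all genes) and 0 in dark. At an unadjusted p under 0.05 there were 5 in dark, against 988 of all 15057 genes. Of 406 chemosensory receptor genes 15 passed (3.69%, against 3.1% of all genes), 5 higher and 10 lower. Of 831 predicted and clone genes 35 passed (4.21%, against the same 3.1%), 27 higher and 8 lower.

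Probe sets without exactly 1 gene symbol, which the annotation used here does not list or lists with several symbols, were tested in the same way. Of 9260 past the filter, 595 were higher and 641 lower in the IPL (13.3%), which is a larger share than among the named genes. Within dark adaptation 4 were higher and 8 lower (0.13%), and the dark minus light contrast passed for 167 of them, 118 positive and 49 negative (1.8%). They are not named here.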
